A study of Bos taurus with 20 samples.

Results

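The 6 genes described here took turns as the gene with the highest value in messenger RNA libraries of bull spermatozoa. They are known here by their Ensembl identifiers: ENSBTAG00000020654, ENSBTAG00000016563, ENSBTAG00000021493, ENSBTAG00000001902, ENSBTAG00000040318 and ENSBTAG00000012383. They were chosen by the largest value of each library, and are all of the genes that held that place in at least 1 of 18 libraries, 6 of the 27607 genes in the table and 6 of the 171 with a value of at least 1 in all 18. The libraries came from frozen-thawed semen of Holstein-Friesian bulls, each pooled from 3 ejaculates of 1 animal. High libraries stand for bulls ranked high for fertility and Low libraries for bulls ranked low. Fertility class was set by a statistical model, and the labels used here give no age, treatment or batch. High replicate 9 and Low replicate 8 carried the same value for each of the 27607 genes, so neither was used, leaving 9 High and 9 Low libraries.

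Mature spermatozoa do not transcribe. Their nucleus is packed with protamines, and most of the RNA they carry was made earlier, in the testis, during the formation of spermatids. The transcripts that dominate such a library are therefore usually read as remnants of late sperm development, and reads from other cells in semen can add to them. The table pairs no identifier with a symbol, and 0 of the 6 identifiers were found in the reference gene table, so the role of each gene is not given and no sequence is shown. Whether markers of sperm or of other semen cells moved with these genes was not tested for the same reason.

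Values in the table are normalised read counts on a scale near CPM, but their sums differed, from 562479 to 1395311 per library. The fertility comparison used these values as deposited. The share of a gene is its value divided by the summed values of its library, in percent. Shares are shares of reads and are not corrected for transcript length, so the order of the genes is an order of reads. In RNA pooled over many spermatozoa, fewer cells that carry a transcript and less of it per cell cannot be told apart. Read totals ran from 9.43 M to 49.5 M per library (M, 1000000 reads) and detected genes (value above 0) from 708 to 3720. The 6 genes were read so deeply that counting error was small beside the spread between bulls: the fewest reads behind any of the 108 shares was 20994, and the widest 95% Wilson interval reached 0.0158 percentage points to either side. These intervals cover counting error only, and rest on a read size that could be checked independently in 7 of the libraries.

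ENSBTAG00000016563 led 6 libraries, 3 High and 3 Low. ENSBTAG00000021493 led 4, of which 3 were Low, and ENSBTAG00000001902 led 3, of which 2 were Low. ENSBTAG00000040318 led 2 High libraries, ENSBTAG00000012383 led 1 of each group, and ENSBTAG00000020654 led only High replicate 2. No single transcript was thus first in most bulls. The lead was usually narrow, with the first gene a median of 1.16 times the second. In 5 libraries it was under 1.1 times, and it was narrowest in Low replicate 7, where ENSBTAG00000016563 at 6.36% stood just above ENSBTAG00000020654 at 6.23%. The widest leads were those of ENSBTAG00000021493, 3.42 times the second gene in Low replicate 13 and 2.55 times in Low replicate 1.

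The second place was held by another of the 6 genes in 14 of the 18 libraries, and the first 3 places were all held by them in 6. At least 3 of the 6 stood among the 10 most abundant genes of every library, with a median of 4.5, and all 6 did so in High replicate 17, Low replicate 4 and Low replicate 18. Outside the set, ENSBTAG00000000421 came closest to leading: in High replicate 3 it reached 5.10% against 5.45% for ENSBTAG00000016563, 0.937 of the leading value. Its mean share of 3.11% ± 1.50 (SD, n = 18) was above that of 2 of the 6 genes, ENSBTAG00000012383 and ENSBTAG00000001902, although it never led. The next closest were ENSBTAG00000018125, at 0.777 of the leader in High replicate 12, and ENSBTAG00000040477, at 0.776 of the leader in High replicate 15.

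**Figure D1:**
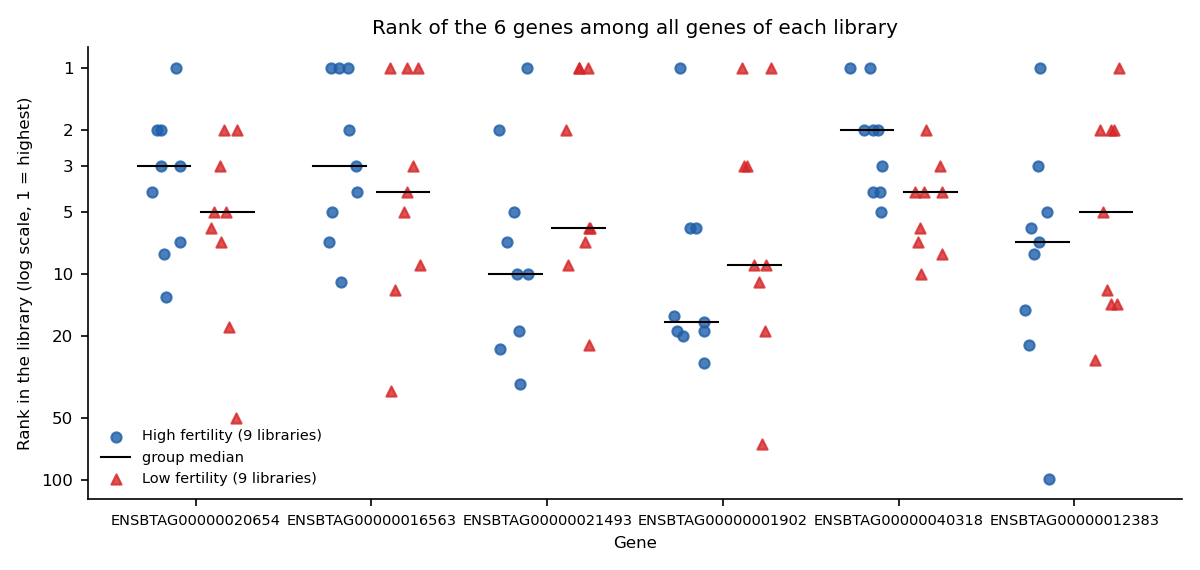
Rank of each of the 6 genes among all genes of a library (log scale, 1 is the highest value), 1 point per library, with High libraries as circles, Low libraries as triangles and the group median as a line. ENSBTAG00000040318 never falls below rank 10, while ENSBTAG00000012383 reaches rank 98 in High replicate 10 and ENSBTAG00000001902 rank 67 in Low replicate 1.

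By mean share over the 18 libraries the order was ENSBTAG00000021493 (3.62% ± 3.58), ENSBTAG00000016563 (3.59% ± 1.89), ENSBTAG00000020654 (3.23% ± 1.77), ENSBTAG00000040318 (3.20% ± 1.06), ENSBTAG00000012383 (2.49% ± 1.60) and ENSBTAG00000001902 (2.23% ± 1.88; SD, n = 18 each). Each step between neighbours in that order was smaller than the SD of either gene. The SDs of the shares, from 1.06 to 3.58, differed more between the 6 genes than the mean shares did.

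ENSBTAG00000040318 was the steady one. It was among the 10 most abundant genes in all 18 libraries, with a worst rank of 10, in Low replicate 1, and a median rank of 4. Its share ran from 2.27% through a median of 3.88% to 5.08% in High, and from 1.07% through 3.11% to 4.02% in Low. Most Low libraries lay within the High range, so the groups overlapped. On the deposited scale its highest value was 4.22 times its lowest, and the SD of its log2 value was 0.56. Only 3 of the other 170 genes present at 1 or more in all 18 libraries had a smaller SD. The median SD over the 171 genes was 1.05.

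The other 5 genes were more variable than most transcripts found in every bull. Their SDs of log2 value lay between 1.23 and 1.32, at percentiles 68.8 to 77.1 of the 171 genes, and their highest values were 20.4 to 37.3 times their lowest. A gene that must lead at least 1 library is favoured to vary, so these spreads describe the set and were not tested.

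ENSBTAG00000021493 had the widest range of shares. It ran from 0.528% (High replicate 16) through a median of 1.64% to 4.85% in High, and from 0.817% through 2.60% to 12.3% in Low. A pair of Low libraries, replicate 1 at 12.3% and replicate 13 at 12.1%, stood well above all others, and Low replicate 11 followed at 7.52%. The other 6 Low libraries, at most 4.38%, lay within the High range.

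ENSBTAG00000001902 was usually modest and occasionally dominant. In High it ran from 0.628% through 1.09% to 5.62%, and in Low from 0.242% through 1.63% to 6.02%. The 3 libraries it led, High replicate 10 and Low replicates 4 and 5, held its 3 highest shares, between 5.62% and 6.02%. It was outside the 10 most abundant genes in 9 of the 18 libraries.

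ENSBTAG00000012383 had the largest drop. Its share ran from 0.161% through 2.29% to 5.03% in High and from 0.698% through 2.17% to 4.85% in Low. The lowest value was that of High replicate 10, where it fell to rank 98, with 20994 reads behind it and a 95% Wilson interval of 0.159% to 0.163%. The groups overlapped almost completely.

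ENSBTAG00000020654 and ENSBTAG00000016563 were high and low in the same bulls. ENSBTAG00000020654 ran from 1.06% through 4.20% to 5.55% in High and from 0.332% through 2.50% to 6.23% in Low. ENSBTAG00000016563 ran from 1.22% through 3.73% to 5.88% in High and from 0.393% through 3.16% to 6.36% in Low. Within High both were lowest in replicate 6 and highest in replicate 16, and within Low both were lowest in replicate 11 and highest in replicate 7.

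**Figure D2:**
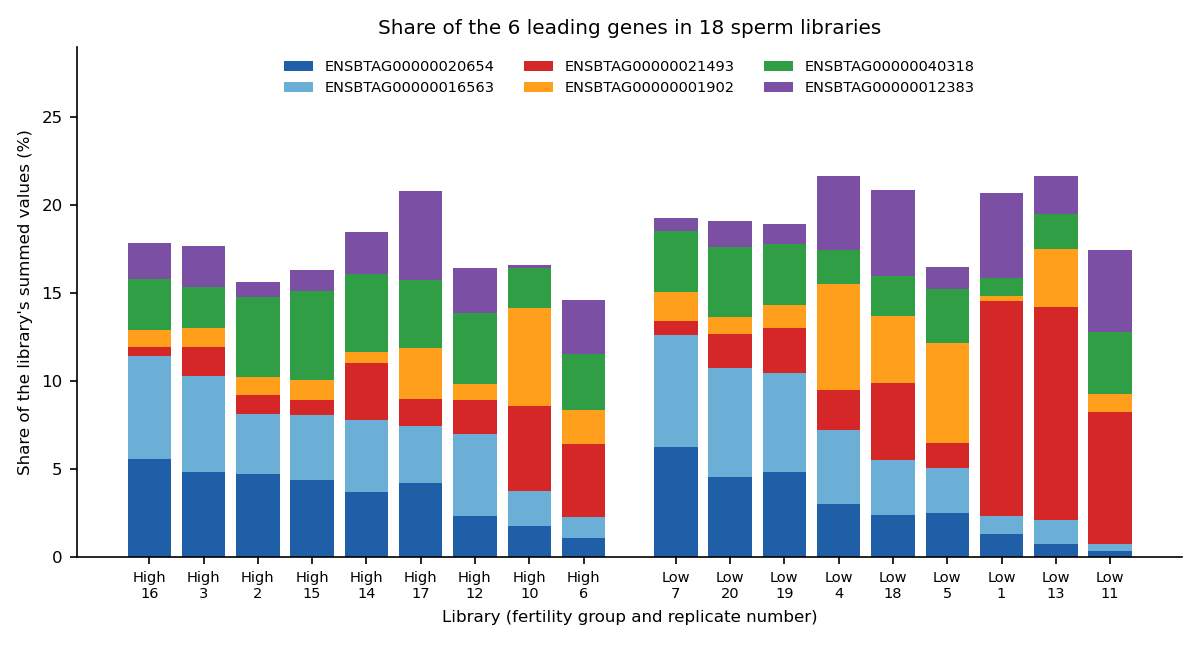
Share of each library's summed values taken by the 6 genes (percent, stacked bars), for 9 High and 9 Low libraries ordered within their group by the joint share of ENSBTAG00000020654 and ENSBTAG00000016563. The full bars stay between 14.6% and 21.7%, while the sizes of the parts vary, with ENSBTAG00000021493 filling much of the bar in Low replicates 1, 13 and 11.

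The shares of these genes move in relation to each other, and the relations below are given as descriptions without p-values, because the same values chose the genes and because the shares of a library are bound to sum to 100%. As a scale for them, Spearman's rho over all 14535 pairs of the 171 genes had a median of 0.01, quartiles of -0.22 and 0.24, and a 5th and a 95th percentile of -0.53 and 0.55. Of the 15 pairs among the 6 genes, 10 had a negative rho, which is 10 of 15 where the share over all pairs was 49.3%.

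The closest pair was ENSBTAG00000020654 with ENSBTAG00000016563. Their shares had Pearson's r = 0.89 and Spearman's rho = 0.87 over the 18 libraries, and r = 0.84 without the 2 libraries farthest from the median share of ENSBTAG00000020654. The relation was seen in both groups, with rho = 0.72 in High and 0.95 in Low (n = 9 each). That rho was higher than 99.8% of all pairs. Their ratio within a library had its lowest value, 0.49, in High replicate 12 and its highest, 1.37, in High replicate 2 (median 0.88). The SD of its log2 value was 0.40, against a median of 1.45 over all pairs, and 0.0138% of all pairs had a smaller one.

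Opposite to this pair stood ENSBTAG00000021493. Against ENSBTAG00000020654 it had r = -0.75 and rho = -0.81, and r = -0.73 without the 2 libraries farthest from the median, with rho = -0.85 in High and -0.78 in Low. Against ENSBTAG00000016563 it had r = -0.71 and rho = -0.68, with rho = -0.53 in High and -0.77 in Low. Among all pairs the first relation stood at percentile 0.234 and the second at percentile 1.43. On the deposited values, which carry a separate scaling factor per library, the same relations were weaker, at rho = -0.65 and -0.49.

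The ratio of the pair together to ENSBTAG00000021493 was lowest in Low replicate 11 and highest in High replicate 16. In Low replicate 11 ENSBTAG00000021493 held 7.52% and the pair together 0.725%, which is 10.4 times less. In High replicate 16 the pair together held 11.4% and ENSBTAG00000021493 0.528%, 21.7 times less. The pair exceeded ENSBTAG00000021493 in 13 libraries, 7 High and 6 Low, and ENSBTAG00000021493 exceeded the pair in 5, High replicates 6 and 10 and Low replicates 1, 11 and 13. Either order was thus found in both fertility groups, but not to the same degree. The ratio of the pair to ENSBTAG00000021493 was 0.56 and 0.77 in High replicates 6 and 10. In Low replicates 1, 11 and 13 it was 0.19, 0.10 and 0.17.

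**Figure D3:**
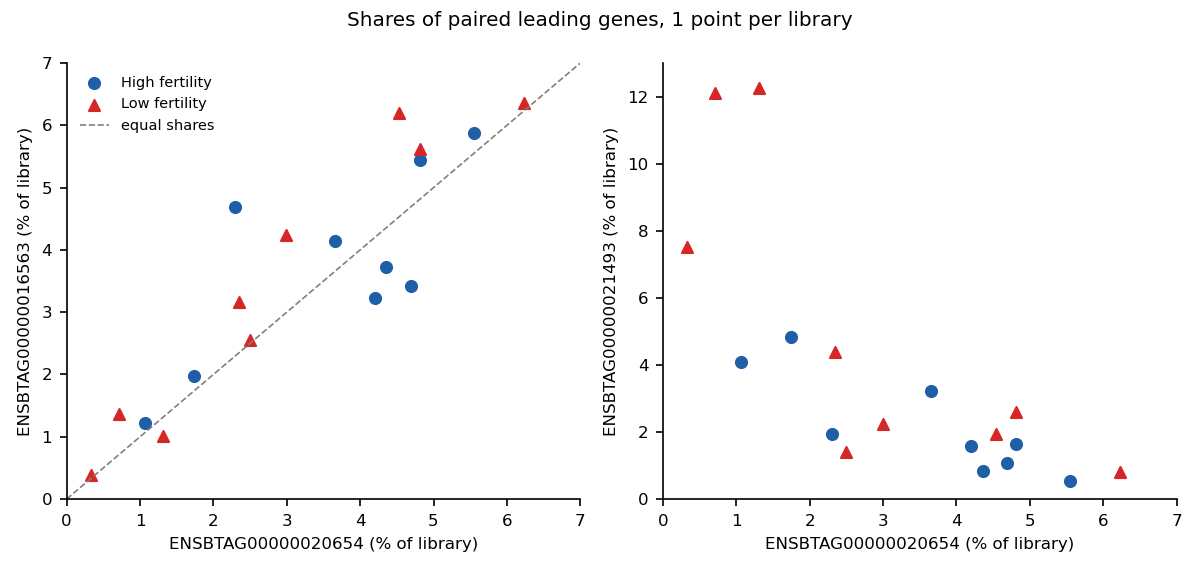
Shares of ENSBTAG00000016563 (left) and ENSBTAG00000021493 (right) against the share of ENSBTAG00000020654, in percent of each library, 1 point per library, High as circles and Low as triangles, with a dashed line of equal shares on the left. On the left both shares rise together, as that of ENSBTAG00000020654 goes from 0.332% to 6.23%, and ENSBTAG00000020654 is the larger in 4 libraries. On the right the 3 points above 7% all have a low share of ENSBTAG00000020654.

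Other transcripts were related to these genes in the same way. Of the 165 other genes present at 1 or more in all libraries, 23 had rho over 0.5 with ENSBTAG00000020654 and under -0.5 with ENSBTAG00000021493, and 16 had the reverse. Since ENSBTAG00000020654 and ENSBTAG00000021493 are themselves opposed, a gene close to one of them cannot be close to the other, so these counts are not independent support. The 23 genes together took 3.37% to 24.9% of a library and the 16 genes 1.59% to 12.3%. These groups were formed from the same shares and are a description.

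The gene most like each member differed in how close it came. For ENSBTAG00000021493 it was ENSBTAG00000011233 (rho = 0.95 over 18 libraries), for ENSBTAG00000020654 it was ENSBTAG00000020164 (rho = 0.93), and for ENSBTAG00000016563 it was ENSBTAG00000000421 (rho = 0.92), the gene that came closest to leading without doing so. ENSBTAG00000016563 and ENSBTAG00000000421 kept the steadiest ratio of any of the 14535 pairs, with an SD of the log2 ratio of 0.26. Their ratio ran from 0.80 to 1.56 with a median of 1.09. Whether reads are shared between these genes by sequence likeness was not tested. For ENSBTAG00000040318 the most similar gene was ENSBTAG00000016006 (rho = 0.78) and for ENSBTAG00000012383 it was ENSBTAG00000013524 (rho = 0.68).

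ENSBTAG00000001902 had few close relations over the 18 libraries. Its most similar gene, ENSBTAG00000005094, reached only rho = 0.43, and 0 of the other 170 genes had rho over 0.5 with it, against a median of 10 over the 171 genes and 32 for ENSBTAG00000020654. With the other 5 members its rho lay between -0.41 (ENSBTAG00000040318) and 0.03 (ENSBTAG00000021493). Some of these depended on the libraries and the scale: with ENSBTAG00000040318 rho was -0.67 without Low replicate 1 and -0.01 on deposited values. With ENSBTAG00000016563 it was -0.72 within High and 0.13 within Low (n = 9 each), against -0.20 over all 18. ENSBTAG00000012383 had rho = 0.42 with ENSBTAG00000021493 and -0.48 with ENSBTAG00000020654. Without High replicate 10, the library where ENSBTAG00000012383 was lowest, these were 0.60 and -0.63.

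The summed share of the 6 genes was 18.4% ± 2.15 (SD, n = 18), with a coefficient of variation of 11.7%, where the single genes had 33.1% to 98.9%. A sum of several genes varies relatively less than its parts, and each library's leading gene is part of the sum by the way the genes were picked, so this is a description. The variance of the sum was 0.173 of the sum of the 6 variances. The summed share ran from 14.6% (High replicate 6) through 16.6% to 20.8% (High replicate 17) in High, and from 16.5% (Low replicate 5) through 19.2% to 21.7% (Low replicate 4) in Low. High libraries averaged 17.1% (SD 1.81) and Low libraries 19.6% (SD 1.81), with 9 of each. The High mean was lower, with a High minus Low difference of -2.42 percentage points, and the groups overlapped. No test was made of this sum, since its members were picked from these libraries.

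The fertility classes were not used to pick the genes, and each gene was compared between them. ENSBTAG00000040318 and ENSBTAG00000020654 led High libraries only (2 and 1). ENSBTAG00000021493 led 3 Low libraries and 1 High, and ENSBTAG00000001902 led 2 Low libraries and 1 High. The direction of the differences of these genes is thus not independent of how they entered the set. In limma on log2(value + 1) over the 1458 genes that reached a value of 1 in 9 or more libraries, 0 of the 6 genes passed an adjusted p of 0.05, where 0% of all tested genes passed. At an unadjusted p under 0.05 there were 40 of the 1458 genes, and 1 of the 6, ENSBTAG00000021493. Over the 9 bulls of each group its deposited values averaged 23936 (SD 17839) for High and 52673 (SD 53781) for Low. High minus Low came to -0.94 on the log2 scale, with SE 0.46 and a 95% interval from -1.88 to -0.0038. The limma p was 0.0491 before adjustment and 0.994 after it. The difference was -0.66 log2 without Low replicate 1 (95% interval -1.57 to 0.25). Whether the interval included 0 depended on the fit. Its upper end was 0.21 with no filter on low values and 0.01 with a pseudocount of 10 in place of 1. With values scaled to the column sum the upper end was -0.06.

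ENSBTAG00000040318 averaged 38456 (SD 13606) over the High bulls and 28072 (SD 9930) over the Low bulls. This was 0.46 log2 higher in High (SE 0.27, 95% interval -0.09 to 1.02), and the limma p was 0.0983 before adjustment and 0.994 after it. It was measured most closely of the 6, with an interval that reached 0.55 log2 to either side. ENSBTAG00000020654 differed by 0.64 log2 (95% interval -0.30 to 1.59) and ENSBTAG00000016563 by 0.46 (-0.45 to 1.37), both with the higher mean in High. Without Low replicate 11, where both were lowest, these were 0.20 and 0.01. ENSBTAG00000001902 differed by -0.35 log2 (-1.34 to 0.64) and ENSBTAG00000012383 by -0.46 (-1.43 to 0.52), both with the higher mean in Low. The adjusted limma p was 0.994 for each of these. Over all 1458 genes the median difference was -0.25 log2, and over the 171 genes found in every bull it was 0.07, with a range of -1.26 to 1.30.

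**Figure D4:**
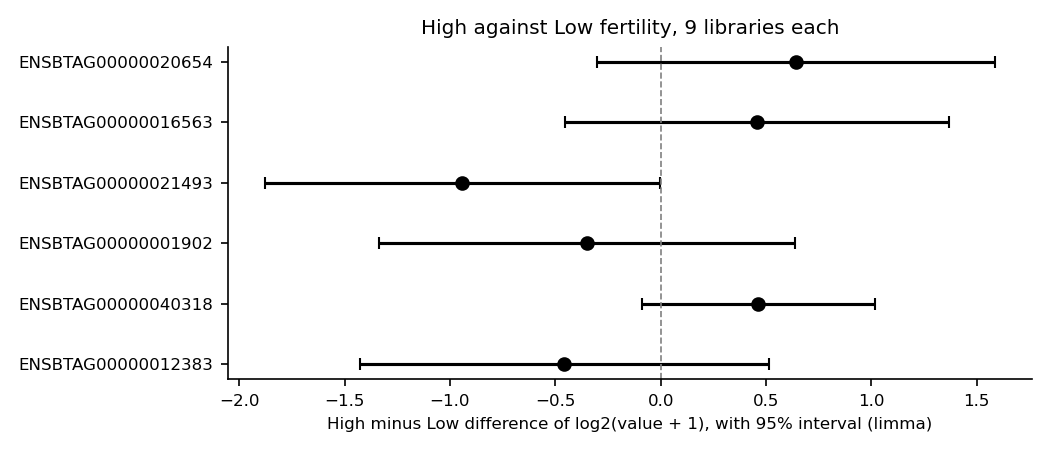
High minus Low difference of log2(value + 1) for each of the 6 genes, with points for the limma estimate and bars for its 95% interval (9 libraries per group, p not adjusted in the intervals). The estimates lie between -0.94 and 0.64, and the interval of ENSBTAG00000021493 ends just below 0, at -0.0038, while the other 5 include 0. With no filter on low values the interval of ENSBTAG00000021493 included 0 too (-2.10 to 0.21, not drawn).

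The share of no member was detectably related to how many genes a library held. Over 18 libraries, 0 of the 6 genes had a share related to the number of detected genes at an adjusted p of 0.05, and 0% of the 171 genes did by Spearman's rho (smallest adjusted permutation p = 0.0975, with 19 genes at an unadjusted p under 0.05). Within High, rho was 0.70 for ENSBTAG00000021493 and -0.68 for ENSBTAG00000020654, and within Low 0.20 and -0.07, differences that were not tested. With deposited values in place of shares, rho over 18 libraries was 0.55 for ENSBTAG00000021493 and -0.03 for ENSBTAG00000040318. For shares over 18 libraries, the strongest relation in the set was that of ENSBTAG00000040318, with r = -0.46 (permutation p = 0.0550, adjusted 0.415) and rho = -0.46 (permutation p = 0.0582, adjusted 0.411). Without Low replicates 1 and 18, the libraries farthest from the median number of genes, r was -0.21, so the size of r depended in part on those libraries. Within High its rho was -0.13 and within Low -0.75 (n = 9 each), a difference that was not tested. Its share also went with read totals unevenly, with rho = -0.42 over 18 libraries (permutation p = 0.0859, adjusted 0.386; r = -0.03, permutation p = 0.906, adjusted 0.981). When the deepest libraries, High replicate 14 and Low replicate 1, were left out, r was -0.52. Within Low rho was -0.90 (r = -0.83) and within High 0.03 (r = 0.23, n = 9 each), and that difference was not tested. In that family, too, 0 of the 6 genes passed, where 0.585% of the 171 genes did. For ENSBTAG00000021493 the rho with read totals was 0.48 (permutation p = 0.0456, adjusted 0.373; r = 0.18, permutation p = 0.414, adjusted 0.972), with rho = 0.75 within High and 0.17 within Low and r = 0.16 with the same pair of libraries left out. The part of read depth in the shares was not tested further.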

How the data were processed

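The authors deposited 1 table of 27607 genes by 20 libraries. Its values are a normalised signal per gene, and per the file headers each column is 1 bull. Every deposited value was a whole multiple of the smallest value in its column (within 0.1 of a read in 100% of values), and the geometric mean of the 20 column sums was 1000000. That smallest value was taken as 1 read. This could be checked independently in 7 libraries (4 High, 3 Low) and not in 13. Tools are known only from the submitters' processing notes, which list STAR 2.6.1 and edgeR 3.5 among others, and build UMD3.1. How reads were assigned to genes, with which annotation and strand setting, is not given in the sources used here.

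Shares, ranks, and Pearson and Spearman correlations were computed in Python 3.11.15 (numpy 2.4.6, scipy 1.17.1). The fertility contrast used limma 3.58.1 in R 4.3.3 with a mean-variance trend on log2(value + 1), two-sided, keeping genes at 1 or more in 9 or more of 18 libraries, with Benjamini-Hochberg adjustment over all genes tested. Relations to detected genes and reads used 100000 permutations, two-sided, adjusted over 171 genes. Alternatives used edgeR 4.0.16 and DESeq2 1.42.0 on the reads of the 7 libraries. The limma and permutation steps were tested on simulated data. The members and lists were chosen with earlier results of these data known. Genes named are the 6 members, the 3 closest to leading without doing so, and the most similar gene to each member. Marker lists written as symbols were not applied, since 0 identifiers matched the 37063 genes of the reference table (assembly ARS-UCD2.0).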

Additional observations from a re-analysis of the deposited data

Results flagged for a closer look

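The share of each of the 6 genes, and their sum, was examined within each group of 9 libraries for a library far from the rest, 14 groups in all. Of these 1 stood out: ENSBTAG00000001902 in High replicate 10, at 5.62% of the library, where the next High library had 2.89%. In that library it was also the most abundant gene, and ENSBTAG00000012383 was at its lowest. For roughly normal values chance alone sets apart 1 in 20 groups. That rate does not hold strictly here, because the genes were picked for leading a library and this gene led the flagged one. The flag is therefore a description. No cause was tested.

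The profile shared by High replicate 9 and Low replicate 8 entered no comparison, so its values are given here. ENSBTAG00000040318 led it at 4.02%, followed among the 6 genes by ENSBTAG00000001902 at 2.41%, ENSBTAG00000020654 at 2.15%, ENSBTAG00000016563 at 1.84%, ENSBTAG00000021493 at 1.27% and ENSBTAG00000012383 at 1.08%. Each of these lay within the range of the 18 libraries. Their sum, 12.8%, was below the lowest of the 18 (14.6%), so the profile was led by a member while the set as a whole took less of it. Which bull it belongs to is not given.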

How the results depend on the processing

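The number of genes past the threshold between High and Low was 0 in 11 of 13 other settings and in each of the 18 fits that left out 1 library. It was 1 with no filter on low values and 105 with DESeq2 on 7 libraries, and the cause was not tested. None of the 6 genes was called in any of these settings (0 calls). Those settings refit the same libraries, and a pseudocount or filter hardly moves the differences of values this high, so a kept direction is not independent support. The intervals did move, and that of ENSBTAG00000021493 included 0 in some settings and not in others. Over the 13 other settings the High minus Low differences kept their direction in 78 of 78 values, and in 108 of 108 with 1 library left out. Their size moved: ENSBTAG00000016563 fell to 0.01 log2 without Low replicate 11, ENSBTAG00000020654 to 0.20 without that library and to 0.13 with limma on 7 libraries, ENSBTAG00000040318 rose to 0.82 with edgeR on 7 libraries, ENSBTAG00000012383 went from -1.61 (limma on 7 libraries) to -0.05 (without High replicate 10), and ENSBTAG00000001902 from -0.66 (without Low replicate 1) to -0.12 (without Low replicate 5). The difference in summed share was -4.79 percentage points when only genes at 1 or more in all 18 libraries made up the total. With deposited values in place of shares, rho was -0.65 for ENSBTAG00000020654 with ENSBTAG00000021493 and -0.49 for ENSBTAG00000016563 with ENSBTAG00000021493. The fits on 7 libraries were chosen after the data were seen. No paired analysis was possible because the replicate numbers of High and Low bulls do not repeat. With no molecular identifiers used here, PCR copies cannot be told from separate molecules, and 9 bulls per group limit the precision.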
